A study of Mus musculus with 14 samples.

Results

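The promoters of Serpine2 and Slpi, a pair of protease inhibitor genes, were examined in 6 clones of 4T1, a cell line from a mouse mammary carcinoma. Both were found by gene symbol in the promoter table, with 1 row for each gene, so that the 2 promoters described here stood among 21965. The clones had been grown from single sorted cells and belonged to a set of 23 clonal lines that was assessed, as a pool, for entry into the vasculature. Per the labels, E and T are the intravasating clones, and K, L, P and I are the non-intravasating ones. No treatment, transgene or deletion is named in the labels for any of these clones, and each group consisted of cultured lines of which every line was 1 clone. The measurement was a methylation level per promoter, the share of cytosines left unconverted by bisulfite, on a scale from 0 (unmethylated) to 1 (fully methylated). It was given once per clone and without read counts, which leaves the depth of every level unknown.

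Serpine2 (protease nexin 1) is a secreted serpin, an inhibitor that offers a bait loop to its target and is then locked to it, and it acts on thrombin, urokinase, tissue plasminogen activator and plasmin. Slpi, the secretory leukocyte protease inhibitor, is a small protein made of whey acidic protein (WAP) domains that blocks neutrophil elastase, cathepsin G and related enzymes on mucosal surfaces. The study of these clones is known for tying both genes to vascular mimicry, the lining of blood channels by tumour cells, and for choosing them by their higher expression in the intravasating clones. Expression was not analysed here, and no level below is set against it. Methylation at a CpG-rich promoter usually accompanies silencing, whereas CpG-poor promoters are often methylated in tissues whether or not the gene is active.

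Serpine2 (RefSeq gene 20720) lies on chromosome 1 from 79794317 to 79858665 and Slpi (RefSeq gene 20568) on chromosome 2 from 164354070 to 164356507, both on the minus strand of GRCm38.p6, the RefSeq form of mm10. The 250 bases before each RefSeq transcription start are shown because they are opposite in CpG content. They lie upstream of the first exon, outside the gene as RefSeq annotates it, written 5′ to 3′ on the gene's strand, and capitals mark CpG dinucleotides, the sites at which methylation is read. Serpine2 is at chr1:79858666-79858915 and Slpi at chr2:164356508-164356757.
Serpine2: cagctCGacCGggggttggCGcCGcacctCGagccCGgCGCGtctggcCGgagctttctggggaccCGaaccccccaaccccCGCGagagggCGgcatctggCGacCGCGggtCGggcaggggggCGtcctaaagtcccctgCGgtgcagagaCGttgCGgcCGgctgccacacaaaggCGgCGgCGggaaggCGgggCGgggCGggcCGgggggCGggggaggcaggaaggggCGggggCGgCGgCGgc
Slpi: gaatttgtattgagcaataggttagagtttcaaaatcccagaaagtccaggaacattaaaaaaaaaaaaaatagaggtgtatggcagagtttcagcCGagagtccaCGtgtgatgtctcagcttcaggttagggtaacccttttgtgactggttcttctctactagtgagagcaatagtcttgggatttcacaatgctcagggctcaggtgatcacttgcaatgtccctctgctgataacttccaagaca

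The Serpine2 sequence held 34 CpGs, from 245 to 4 bases before the start, and 78.8% of its bases were G or C. Its CpG count was 0.912 of that expected from its C and G content. The Slpi sequence held 2 CpGs, at 154 and 144 bases before the start, with 42.0% G or C and an observed over expected ratio of 0.183. The GC box GGGCGG, the letters bound by Sp1 factors, was found 6 times in the Serpine2 window and 0 times in that of Slpi, counting both strands. It was present at least once in 32.7% of 32851 RefSeq promoter windows of the same length, and 0.886% of them held it 6 times or more. These windows were not matched to Serpine2 in CpG content, and the GC box itself contains a CpG. The E-box CACGTG was found 1 time in the Slpi window, where its middle bases are the CpG nearer the start, and 6.02% of windows held one. The TATA box TATAAA (12.4% of windows), the CCAAT box CCAAT (33.8%) and the AP-1 letters TGANTCA (6.75%) were found in neither. No source used here gives the boundaries behind the deposited promoter levels, so the windows shown need not be the stretch that was measured. Among the genes compared by CpG count below, 937 had 0 CpGs in this window and still had a level (median 0.372). At those genes the CpGs that were read lay outside the window. How far the measured stretch reached at Serpine2 and Slpi is not known.

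The Serpine2 promoter was partly methylated in every clone and differed widely between clones. Of the intravasating clones, E had a level of 0.449 and T of 0.229. Of the non-intravasating clones, I had 0.611, K 0.309, L 0.489 and P 0.323. Clone I was the highest and clone T the lowest, a range of 0.382, and clone E lay inside the span of the non-intravasating clones. In order from the highest the clones were I, L, E, P, K and T. The steps from I to L (0.122), E to P (0.126) and K to T (0.0799) were wider than 0.0610, the median absolute difference between 2 clones at the 1356 other promoters whose mean lay within 0.05 of that of Serpine2. The steps from L to E (0.0399) and P to K (0.0139) were narrower than that median. With 1 value per clone, no error could be given for the level of a single clone.

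The Slpi promoter was methylated to a similar extent in all 6 clones. Of the intravasating clones, E had a level of 0.614 and T of 0.579. Of the non-intravasating clones, I had 0.690, K 0.600, L 0.580 and P 0.673. Clones I and P were the highest, clones T and L the lowest, with clone E inside the span of the non-intravasating clones and clone T 0.00115 below clone L. Of the steps in this order only that from P to E (0.0591) was wider than 0.0574, the median absolute difference between 2 clones at the 1739 other promoters of like mean. Clone I had the highest and clone T the lowest level at both genes.

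**Figure D1:**
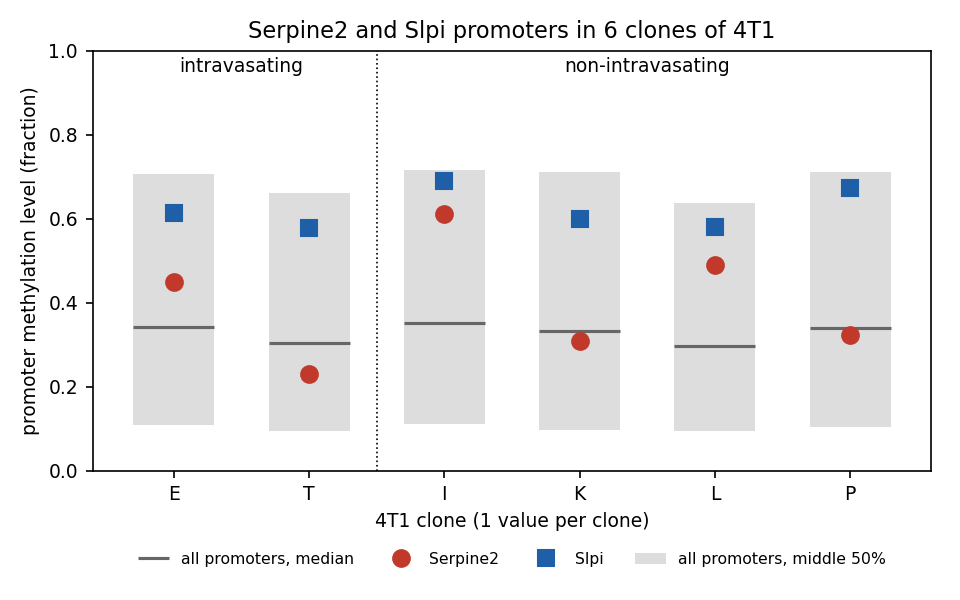
Promoter methylation level (vertical axis, fraction from 0 to 1) of Serpine2 and Slpi in each 4T1 clone (horizontal axis), with the median (line) and middle 50% (grey bar) of 21965 promoters. Slpi lies between 0.579 and 0.690 and Serpine2 between 0.229 and 0.611, with the intravasating clones E and T on the left.

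Against all promoters, Slpi stood in the upper part and Serpine2 near the middle of the distribution. The median promoter level of a clone was between 0.296 (clone L) and 0.352 (clone I), and clone T had the second lowest at 0.303. The Slpi level exceeded that of 67.4% (clone E) and 68.6% (clone T) of promoters in the intravasating clones, and of 66.2% to 72.7% in the non-intravasating clones. Its place among promoters therefore changed little from clone to clone. The Serpine2 level exceeded that of 56.6% (clone E) and 43.6% (clone T) of promoters in the intravasating clones, against 48.4% to 66.7% in the non-intravasating clones. Relative to the clone's own median promoter, Serpine2 was 0.259 higher in clone I and 0.0740 lower in clone T (-0.0740). Clones T and L had the lowest medians of all promoters, and with the medians subtracted clone T still had the lowest Serpine2 value and clone L the second highest.

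The contrast stated in the study's design, intravasating against non-intravasating, gave no difference larger than the spread between clones at either gene. For Serpine2 the intravasating clones had a mean level of 0.339 ± 0.156 (SD, n = 2). The mean of the non-intravasating clones was 0.433 ± 0.144 (SD, n = 4). The difference was -0.0938 with a 95% interval of -0.314 to 0.126, so that the data allow for a lower or a higher level in the intravasating clones. The limma test across all promoters gave an unadjusted p of 0.358 and an adjusted p of 1.00. The exact permutation test over the 15 splits gave p = 0.533 (two-sided, the smaller tail doubled). A single tail cannot fall below 0.0667 in this design, and the two-sided p is always larger than that. For Slpi the means were 0.596 ± 0.0250 (SD, n = 2) and, in the non-intravasating clones, 0.636 ± 0.0542 (SD, n = 4), a difference of -0.0394 with a 95% interval of -0.142 to 0.0630. The limma unadjusted p was 0.405, the adjusted p was 1.00, and the exact permutation p was 0.533 (two-sided). Neither of the 2 promoters was called at a limma adjusted p under 0.05, against 0.00911% of all promoters (2 of 21965). In neither did the groups separate, against 11.2% of all promoters in which they did. A lower mean in the intravasating clones, as at both genes, was found at 57.5% of all promoters. The Serpine2 difference rested on clone T, since without it the value was 0.0162, and without clone I it was -0.0346 and without clone E -0.204. The sequencing rounds have no columns of their own, and nothing in the labels says that they were separate cultures, so each clone counted once in the tests. The spread between clones includes any measurement error, and limma also draws on the spread at other promoters.

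The levels of the 2 genes were also compared within each clone. Slpi exceeded Serpine2 in 6 of 6 clones, by 0.349 in clone T, 0.165 in clone E, 0.0793 in clone I, 0.290 in clone K, 0.0905 in clone L and 0.350 in clone P. The mean excess was 0.221 ± 0.125 (SD, n = 6). The exact sign-flip permutation test gave p = 0.0313, two-sided, the smallest that 6 clones allow.

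Serpine2 was among the promoters that varied most between these clones, and Slpi was not. The SD of Serpine2 over the 6 clones was 0.140, against a median of 0.0337 over all promoters, and 223 promoters (1.02%) had a larger SD. SD depends on the mean level, being small near 0 and 1. Among the 1356 other promoters of like mean the median SD was 0.0593, and 56 exceeded Serpine2. The SD of Slpi was 0.0480, larger than that of 69.1% of all promoters but of only 33.9% of the 1739 promoters of like mean, whose median SD was 0.0559. These places are descriptions without a test.

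**Figure D2:**
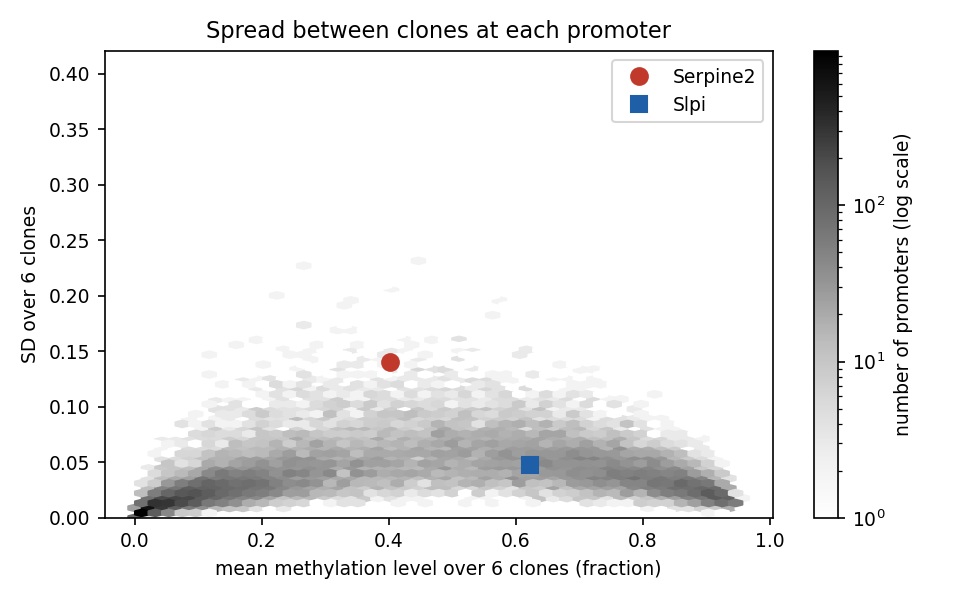
SD of the methylation level over 6 clones (vertical axis) against the mean level (horizontal axis) for 21965 promoters, shaded by their number on a log scale. Serpine2, at a mean of 0.402 and an SD of 0.140, lies near the upper edge, and Slpi, at 0.623 and 0.0480, lies within the bulk.

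CpG content set the 2 promoters apart further. Across 11848 genes with 1 promoter row and 1 RefSeq promoter sequence, the median level was 0.372 for windows with 0 CpGs, 0.491 for those with 1 to 2, the class of Slpi, and 0.621 for those with 3 to 5. It was lower in each richer class, down to 0.0845 for windows with 31 to 55 CpGs, the class of Serpine2. Serpine2 had more CpGs than 95.7% of these genes. The 211 other genes within 1 CpG of its count had a median level of 0.0895, with the middle 50% from 0.0238 to 0.215, and 73.0% of them were under 0.2. Serpine2, at a mean of 0.402, thus had a higher deposited level than most genes with a window as rich in CpG, and 38 of the 211 (18.0%) were at or above it. CpGs were counted in the window only, whereas the level came from a stretch of unknown extent. Whether the CpGs of the window were themselves methylated cannot be told from these levels. Clone by clone, between 13.7% (clone I) and 22.7% (clone T) of the 211 were at or above the Serpine2 level, so that even the lowest clone stood above the median of 0.0815 in that clone. The median SD over clones of these genes was 0.0181, and 4 of the 211 (1.90%) were as variable as Serpine2 or more. Without clone K this share was 0.948%, and without any other 1 clone it was 1.42% to 2.37%.

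The 4 CpG-rich genes that varied as much, named here after their values were seen, did not share the order of clones seen at Serpine2. Hunk, a protein kinase gene on chromosome 16, was lowest in clones T (0.0987) and E (0.268) and at 0.452 to 0.559 elsewhere. Its groups thus did not overlap, as at 11.2% of all promoters, and it was not called (limma unadjusted p = 0.00067). Nr4a1, an orphan nuclear receptor gene on chromosome 15, was highest in clone L at 0.644 and otherwise at 0.196 to 0.328. Rasef, a gene of a Rab-like GTPase on chromosome 4, was highest in clone I at 0.597 and lowest in clone K at 0.117. Cdk2ap1, a gene of a CDK2-binding protein on chromosome 5, was highest in clone P at 0.568 and lowest in clone K at 0.199. Clone I was the highest at Hunk, Rasef and Serpine2, and clone T the lowest at Hunk and Serpine2.

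Slpi had more CpGs than 16.6% of the matched genes. The 2516 other genes within 1 CpG of its count had a median level of 0.528 (middle 50% from 0.318 to 0.705), and 36.1% of them were at or above Slpi. Their median SD was 0.0573, and 64.3% were as variable as Slpi or more. In every clone the Slpi level lay above the median of these genes, which was 0.459 in clone L and 0.499 to 0.556 in the others. Slpi was thus an ordinary member of the CpG-poor class in level and in spread.

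**Figure D3:**
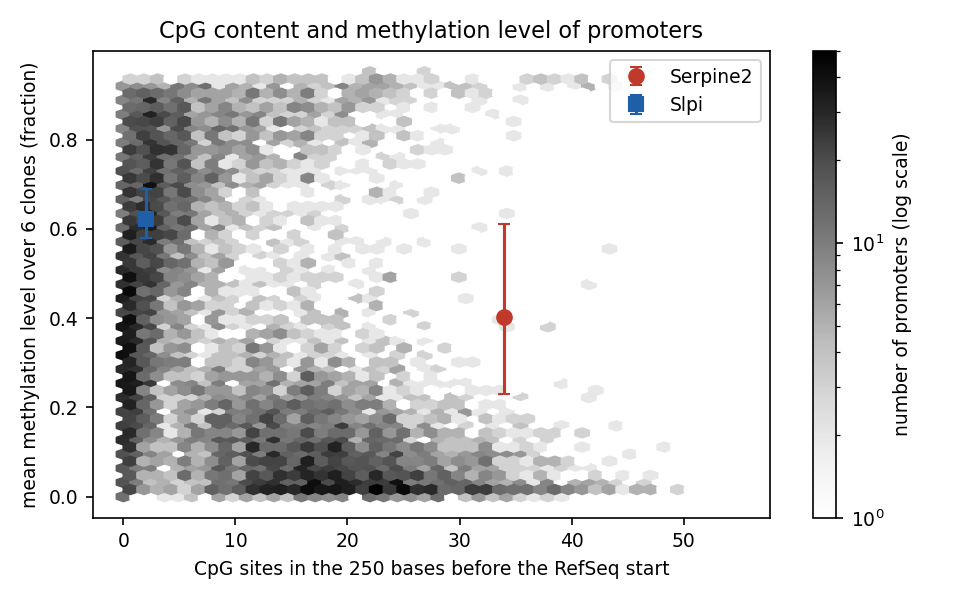
Mean methylation level over 6 clones (vertical axis, fraction) against the number of CpGs in the 250 bases before the start (horizontal axis) for 11848 genes, shaded by their number on a log scale, with bars on Serpine2 and Slpi from the lowest to the highest clone. Serpine2, at 34 CpGs, lies above the dense band of low levels, and Slpi, at 2 CpGs, lies within the broad spread of CpG-poor promoters.

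A spread as wide as that at Serpine2 was not seen at the promoters on either side of it. In RefSeq order, Mrpl44, a mitochondrial ribosomal protein gene, was at 0.0673 to 0.108 over the 6 clones, and Fam124b at 0.647 to 0.842. Beyond them, Cul3, the scaffold of a ubiquitin ligase, was at 0.00923 to 0.0205. The adaptor subunit gene Ap1s3 was at 0.0873 to 0.118 and the endosomal protein gene Wdfy1 at 0.0748 to 0.123. Dock10, a guanine nucleotide exchange factor gene, was at 0.842 to 0.924, and Irs1, the insulin receptor substrate gene, at 0.0865 to 0.221 with clone L the highest. The other three of the 10 neighbours were Kcne4, a potassium channel subunit gene (0.50 to 0.737), the secretogranin gene Scg2 (0.452 to 0.581) and 1700016L21Rik (0.498 to 0.743). The widest range among the 10 was 0.245, at 1700016L21Rik, against 0.382 at Serpine2. None of the 10 was called by limma (0.00911% of all promoters were), none had an unadjusted p under 0.05 (smallest 0.163), and the groups overlapped at all 10.

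Slpi lies beside a cluster of seminal vesicle secretion genes, whose promoters ranged from levels like that of Slpi to levels below the median of all promoters. Svs5 was at 0.561 to 0.713, Svs4 at 0.593 to 0.733, Svs6 at 0.346 to 0.560, Svs3a at 0.233 to 0.50 and Svs3b at 0.179 to 0.329. On the other side stood Matn4, a matrix protein gene (0.714 to 0.850), Rbpjl, a pancreatic transcription factor gene (0.466 to 0.583), Sdc4, the syndecan-4 gene (0.256 to 0.412), and Sys1, a Golgi protein gene (0.131 to 0.213). Of the 4 promoters of Dbndd2, 3 had means of 0.110 to 0.169 and 1 a mean of 0.740. None of these 13 promoters of 10 genes was called by limma, against 0.00911% of all promoters. The groups did not overlap at 3 of the 13, against 11.2% of all promoters. Svs3b had levels of 0.194 (clone E) and 0.179 (clone T) beside 0.253 to 0.329 in the non-intravasating clones (limma unadjusted p = 0.0239, adjusted p = 1.00). Sdc4 was at 0.256 and 0.280 against 0.288 to 0.412 (limma unadjusted p = 0.108). The highly methylated Dbndd2 promoter was at 0.792 and 0.774 against 0.643 to 0.760 (limma unadjusted p = 0.124). The differences of these neighbours pointed both ways, from -0.105 to 0.110.

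**Figure D4:**
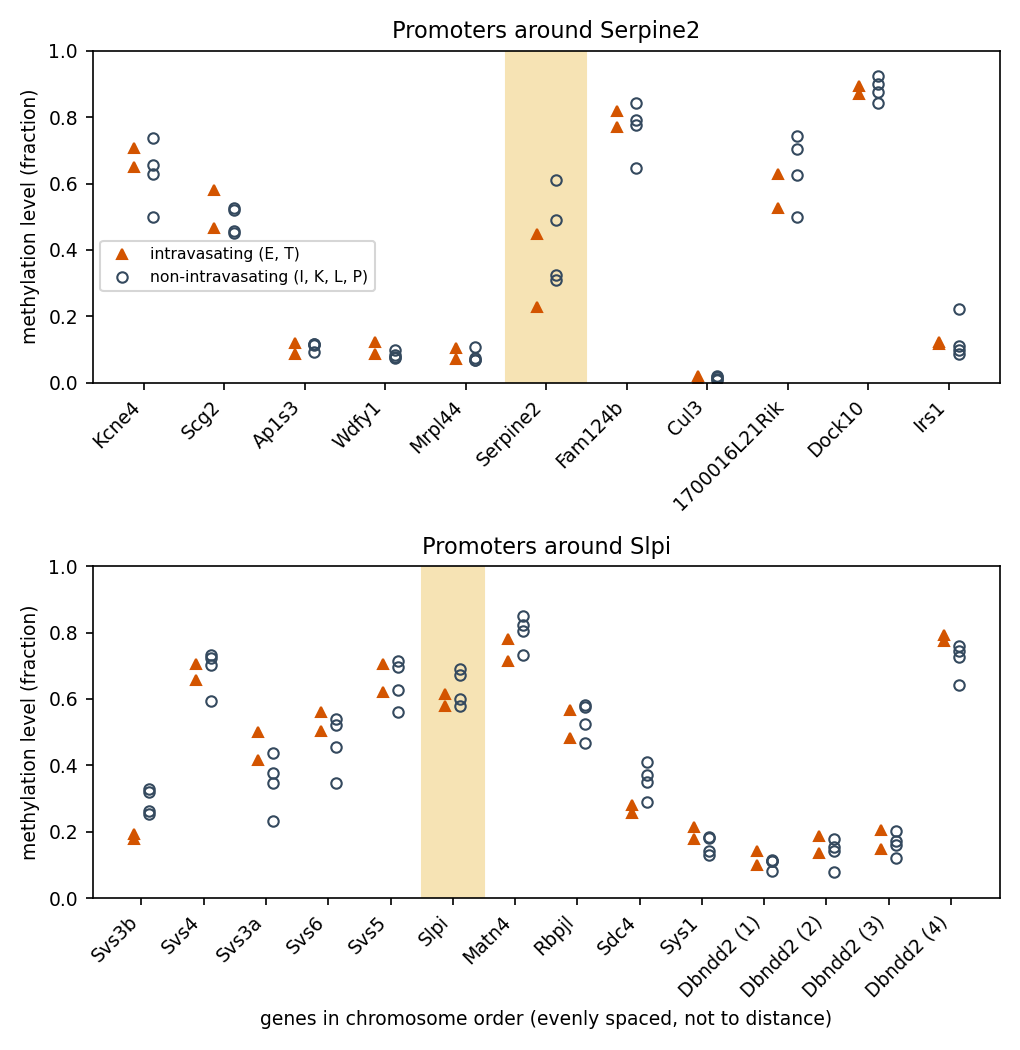
Methylation level (vertical axis, fraction) of Serpine2 (top) and Slpi (bottom) and of the promoters of 5 genes on each side, in chromosome order and evenly spaced, with 1 point per clone (triangles for E and T, circles for I, K, L and P). The points of Serpine2 span 0.382, more than those of any neighbour shown beside it, while those of Slpi span 0.112.

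Among promoters elsewhere in the genome, those with the pattern most like Serpine2 were sought by Pearson r over the 6 clones, among 9624 other promoters with a range of at least 0.1. The 5 nearest were Olfr385, an olfactory receptor gene (r = 0.979), Antxr1, an anthrax toxin receptor gene (0.979), Hrh3, a histamine receptor gene (0.975), Dlx2, a homeobox gene (0.972), and Mir2136, a microRNA gene (0.971). In all 5, as at Serpine2, clone I was the highest and clone T the lowest, which follows largely from their being picked for a like pattern. Their ranges were narrower, such as 0.0875 to 0.214 at Antxr1 and 0.355 to 0.658 at Hrh3. Nearest by absolute level were Vtcn1, an immune checkpoint ligand gene (mean absolute difference 0.0394), Man1c1, a mannosidase gene (0.0472), and Olfr385 (0.0488). At Vtcn1 the level was 0.578 in clone I, 0.444 in E, 0.383 in L, 0.364 in P, 0.347 in K and 0.215 in T. For Slpi the 5 nearest by r were Htr1a, a serotonin receptor gene (0.995), Poteg (0.993), Cyp4f40, a cytochrome P450 gene (0.988), Siglece, a sialic acid-binding lectin gene (0.985), and Gm4951 (0.981). Btnl9 (mean absolute difference 0.0136), Nat8 (0.0152) and Pdzd2 (0.0157) were nearest in level. In all, 23 promoters exceeded r = 0.95 with Serpine2 and 58 with Slpi, while 3 and 2 were under r = -0.95. All of these points share the same 6 clones and their libraries, including any shift of a whole clone.

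The relatives of both inhibitors were not called either, and the lists that follow are given by counts. Of 63 other serpin promoters (58 genes) limma called 0, against 0.00911% of all promoters, and 5 had an unadjusted p under 0.05, against 3.93% of all promoters (864 of 21965). Their median difference was -0.0103, against -0.00424 over all promoters, and the intravasating mean was the lower one at 37 of 63. None of the 63 had an SD as large as that of Serpine2 (largest 0.117). Serpine3, of the same clade as Serpine2, was highest in clone E (0.856), with 0.732 in clone T and 0.681 to 0.838 elsewhere. Serpinb1c was the serpin whose groups stood farthest apart, with 0.761 (clone E) and 0.770 (clone T) beside 0.651 to 0.669 (limma unadjusted p = 0.00768, adjusted p = 1.00). The list ran from Serpinb3d at a mean of 0.00511 to Serpinc1, the antithrombin gene, at 0.894. For the family of Slpi, 17 promoters of 16 genes with WAP domains ran from Wfdc2 at 0.0107 to Wap, the whey acidic protein gene of milk, at 0.817. Their median level was 0.611, close to the mean of Slpi at 0.623, and their median difference was -0.0174. The groups did not overlap at 1 of these 17 and at 4 of the 63 serpin promoters, in both lists a smaller share than the 11.2% of all promoters. None of the 17 was called by limma or had an unadjusted p under 0.05, where all promoters gave 0.00911% and 3.93%.

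Promoters of the proteases that the inhibitors act on were mostly methylated in all clones. Of the targets of Serpine2, the urokinase gene Plau had a mean of 0.143 over the 6 clones, the tissue plasminogen activator gene Plat 0.416, the plasminogen gene Plg 0.687 and the thrombin gene F2 0.735. Of the targets of Slpi, the cathepsin G gene Ctsg was at 0.689, the neutrophil elastase gene Elane at 0.716 and the mast cell chymase gene Cma1 at 0.837. The trypsin genes Prss1 and Prss2 were at 0.0119 and 0.835. Prss1 was listed at 0 in 5 of the 6 clones, and whether such a 0 is an unmethylated promoter or one without a usable estimate cannot be told from the table. None of the 9 was called, against 0.00911% of all promoters, and their median difference was -0.0237, against -0.00424 over all promoters. Receptors and partners were low, with means of 0.0506 for Lrp1, the receptor that clears serpin complexes, 0.0537 for the scramblase gene Plscr1, 0.0553 for the progranulin gene Grn, 0.156 for the syndecan-1 gene Sdc1, 0.162 for the annexin A2 gene Anxa2 and 0.280 for Plscr4. None of these 6 was called, where 0.00911% of all promoters were. Lrp1 had levels of 0.0364 (clone E) and 0.00180 (clone T) beside 0.0289 to 0.103 (limma unadjusted p = 0.0422, adjusted p = 1.00). At 2 of the 6, against 11.2% of all promoters, the groups did not overlap: Plscr4 and Anxa2 were lower in both intravasating clones, with gaps (written as differences) of -0.0196 and -0.000686.

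Coagulation genes, the setting in which Serpine2 is best known, held 24 promoters of 20 genes. None of the 24 was called, against 0.00911% of all promoters. Their median difference was -0.0133, against -0.00424 over all promoters. The groups did not overlap at 3 of the 24 in the higher and 5 in the lower direction, against 11.2% of all promoters. Of the 5 lower ones 3 belonged to Tfpi, the gene of an inhibitor of coagulation start (gaps of -0.00449 to -0.0172). Those 3 had like means (0.784 to 0.798) and need not count as separate signals. The 24 promoters ran from Plaur, the urokinase receptor gene, at 0.0135 to the factor VIII gene F8 at 0.889. A promoter of Proc, the protein C gene, was the single one with an SD above that of Serpine2, at 0.161. Its levels were 0.562 in clone L, 0.488 in P, 0.259 in K, 0.248 in E, 0.239 in I and 0.156 in T (limma unadjusted p = 0.0806). A promoter of F13a1, a subunit gene of the clot-stabilising factor XIII, had levels of 0.636 (clone E) and 0.687 (clone T) beside 0.50 to 0.580 (limma unadjusted p = 0.0167, adjusted p = 1.00). Both F13a1 promoters were among the higher ones without overlap (gaps of 0.0560 and 0.0206), and they need not count as separate signals either. The 10 vascular mimicry and endothelial genes ran from Mmp14, a membrane protease gene, at 0.0128 to Nodal, a TGF-beta family ligand gene, at 0.885. None of them was called, where 0.00911% of all promoters were, and their median difference was -0.0100, against -0.00424 over all promoters. Defining genes of the epithelial label were low, as Cdh1 (0.0856), Krt8 (0.139), Epcam (0.172), Krt14 (0.186) and Krt18 (0.258) apart from Krt5 (0.643), whereas the leukocyte genes Cd3e, Itgam and Ptprc were at 0.641 to 0.790. The fibroblast genes were mixed, with 2 promoters of Pdgfra at 0.0597 and 0.560, Col1a1 at 0.397 and 2 of Dcn at 0.685 and 0.733.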

How the data were processed

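Genomic DNA of the clones was sheared, bisulfite converted and sequenced as 76 nt paired-end reads, in 2 rounds per clone, per the labels' protocols. The authors deposited methylation levels as a fraction from 0 to 1, 1 per promoter and clone, with no counts. The aligner, the promoter boundaries and the way the rounds were combined are not given in the sources used. The submitters' processing notes name bedtools, DESeq and mm10. The parental line was not analysed here. Hypomethylated regions were not used, since their coordinates run past the ends of mm10 genes, and they were not matched to either promoter here.

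Of 22110 rows, 145 repeats (same gene, same 6 levels) were counted once. The 2 intravasating clones were set against the other 4 by limma (version 3.58.1, R version 4.3.3, trended eBayes), with Benjamini-Hochberg adjustment over 21965 promoters and called under 0.05. The limma step was tested on simulated data, in which every planted difference was larger than those seen at Serpine2 and Slpi. That test therefore does not tell whether differences of their size would be found. Other values came from SciPy 1.17.1, NumPy 2.4.6 and pandas 2.3.3 in Python 3.11.15. Promoter sequences and gene order came from RefSeq (GRCm38.p6), in which both genes were found. Motifs were chosen after the sequences were seen.

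The members and lists were chosen with earlier results of these data known. Named were both genes, 5 neighbours on each side, the 5 most alike by r and the 3 most alike by level, target proteases and partners, and from longer lists the ends and promoters with a gap of at least 0.05 between groups. Serpine3, Proc, Tfpi, the CpG-rich genes as variable as Serpine2 and the markers were named outside that rule. Alternatives were a logit scale (bounds 0.01 and 0.99), an arcsine scale, no mean trend, centring on clone medians, a range of at least 0.1, a CpG window of 3 and each clone left out.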

Additional observations from a re-analysis of the deposited data

Results flagged for a closer look

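Neither Serpine2 nor Slpi had a non-intravasating clone far from the other three. Of 25 promoters looked at (both genes and their neighbours), 3 did, by Dixon's 95% limit on the gap to the nearest clone over the range of the 4 clones, and chance gives about 1 in 20 groups. The Ap1s3 promoter was at 0.0908 in clone I, below the other non-intravasating clones (gap over range 0.877). The Mrpl44 promoter was at 0.108 in clone L, above them (0.865). The first of the 4 Dbndd2 promoters was at 0.0823 in clone K, below them (0.861). These ranges are narrow, and 3 different clones stood out.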

How the results depend on the processing

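Neither promoter was called under any alternative run. The Serpine2 difference was negative under all 5 alternatives of scale, model, centring and filter (limma unadjusted p 0.157 to 0.422), and ran from -0.204 to 0.0162 when 1 clone was left out, positive without clone T only. The Slpi difference was negative throughout, -0.0580 to -0.0212 when 1 clone was left out (limma unadjusted p 0.187 to 0.733). Where clone E or T was left out, the remaining intravasating clone was assumed to vary like the others. The excess of Slpi over Serpine2 was 0.195 to 0.249 with 1 clone left out, when 5 clones cannot give an exact permutation p below 0.0625. Over all promoters limma called 0 without the mean trend (943 with an unadjusted p under 0.05), 5 after centring, 25 with a range of at least 0.1, and 0 (without clone L, 1691 with an unadjusted p under 0.05) to 4 (without clone E) with 1 clone left out. The share of CpG-rich promoters at or above the SD of Serpine2 was 0.948% to 2.37% with 1 clone left out, an alternative added after seeing the data, and 1.01% with the CpG window of 3. The share at or above its level was 17.4% with that window and 17.5% to 19.0% with 1 clone left out. No paired analysis was possible because the deposited columns carry no round number. No coverage minimum could be applied, and the unknown depth limits what can be said of any single level.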
